A study of Arabidopsis thaliana with 12 samples.

Results

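A set of 8 Arabidopsis thaliana genes of chlorophyll breakdown and leaf senescence was examined in seedlings induced to express intact or mutated TFIIS. The set was given by gene identifier and uses no measured value: SGR1 (AT4G22920), SGR2 (AT4G11910), NYC1 (AT4G13250), NOL (AT5G04900), PPH (AT5G13800), PAO (AT3G44880), SAG12 (AT5G45890) and SAG13 (AT2G29350). Of these 8 genes, 6 have a row of their own among the 32705 rows of the deposited table. The other 2, NOL and PAO, occur only in rows that they share with neighbouring genes. Of the 6, 4 reached 5 FPKM in at least 1 pool and 3 did so in every pool. FPKM are fragment counts scaled to transcript length and sequencing depth, so levels of different genes can be compared per length.

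All seedlings were 10 days old, of ecotype Columbia, and carried the tfIIs-1 insertion (SALK_056755) in the gene of TFIIS, a factor that helps stalled RNA polymerase II resume elongation. They carried an inducible transgene for GFP-TFIIS or for the mutated form GFP-TFIISmut and were exposed for 24 h to 2 mM estradiol, the concentration given in the labels, or to ethanol. This gives 4 groups of 3 libraries, called here TFIIS mock, TFIIS induced, TFIISmut mock and TFIISmut induced. The mock seedlings thus also carry the insertion in the native gene and a transgene, and whether any function of TFIIS remained in them was not tested. A line with an intact native gene of TFIIS is not analysed here, and the labels do not say how many independent transformants were used. The table gives a single value per gene and group, called a pool here, so no value has an error and no difference was tested. Which column is which group was inferred from abbreviated column names, and every statement on a line rests on that reading.

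A leaf that ages or is stressed dismantles its chlorophyll in an ordered route inside the chloroplast. NYC1 and NOL, the subunits of chlorophyll b reductase, begin the conversion of chlorophyll b to chlorophyll a. SGR1, also called NYE1, removes the central magnesium, PPH cleaves off the phytol tail, and PAO opens the ring of the product, pheophorbide a, which ends the green colour. SAG12, a cysteine protease, and SAG13, a short-chain dehydrogenase, are used as transcript markers: SAG12 of age-dependent senescence, SAG13 of senescence and also of stress and cell death.

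The words higher and lower are used by a rule of size: a difference of 1 or more between log2(FPKM + 1) values, called 2-fold here. The rule applies to eligible genes, those with at least 5 FPKM in the larger pool and listed at 0 in neither; shared rows are not counted. The log2(FPKM + 1) scale understates differences of genes with low FPKM. Lists of further genes, described below, were chosen with earlier results of these data known, so their counts are descriptions. SAG13 stood apart from the other genes of the set, with a high level in TFIISmut induced alone. SGR1 was highest and NYC1 lowest in that same pool, by smaller amounts, and SAG12 was listed at or near 0 in every pool.

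The pools summed to between 900276 and 1055590 FPKM, and 13671 to 13939 genes reached 5 FPKM in each. The induced gene TFIIS (AT2G38560) was at 21.1 FPKM in TFIIS mock, 742 FPKM in TFIIS induced, 17.6 FPKM in TFIISmut mock and 87.02 FPKM in TFIISmut induced, so the transcript was induced to a lower level in the TFIISmut line. Markers of leaf photosynthesis were abundant in every pool, with 8 genes summing to 18176 FPKM in TFIIS mock, 15450 FPKM in TFIIS induced, 18717 FPKM in TFIISmut mock and 10807 FPKM in TFIISmut induced. In whole seedlings, fewer cells of a type and less RNA per cell cannot be told apart. The TFIIS mock pool stood apart in genes of water loss and abscisic acid. Its 10 markers summed to 1194 FPKM, against 97.2 FPKM in TFIISmut mock, 119 FPKM in TFIISmut induced and 132 FPKM in TFIIS induced.

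**Figure D1:**
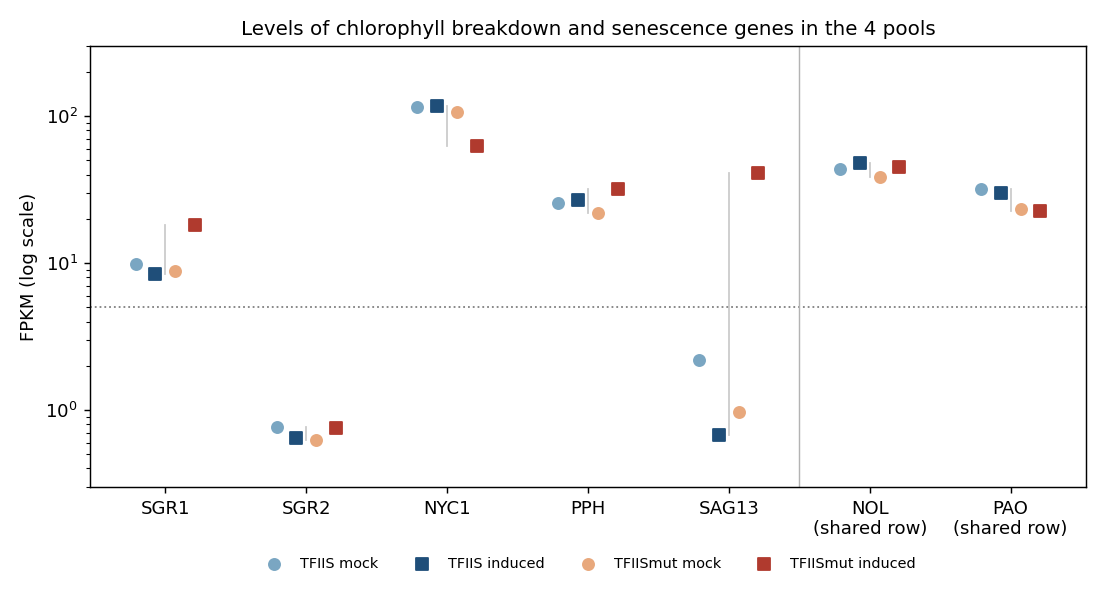
FPKM on a log axis of 7 genes in the 4 pools, each point 1 pooled value without error; the dotted line marks 5 FPKM, and NOL and PAO, right of the vertical line, are values of rows shared with neighbours. SAG13 lies at 40.9 FPKM in TFIISmut induced and at or below 2.20 FPKM elsewhere, and SAG12, at 0 in 3 pools, is not drawn.

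The windows just upstream of the genes at the extremes of the set are shown first, because among the eligible genes of the set SAG13 had the largest and NYC1 the smallest log2 difference, induced minus mock, in the TFIISmut line. Each is the 250 bases before the start of the RefSeq gene on TAIR10.1, 5′ to 3′ on the gene's strand, chr2:12600664-12600913 on the plus strand for SAG13 and chr4:7687007-7687256 on the minus strand for NYC1. Capitals mark matches, on either strand, to the short motifs searched.
SAG13: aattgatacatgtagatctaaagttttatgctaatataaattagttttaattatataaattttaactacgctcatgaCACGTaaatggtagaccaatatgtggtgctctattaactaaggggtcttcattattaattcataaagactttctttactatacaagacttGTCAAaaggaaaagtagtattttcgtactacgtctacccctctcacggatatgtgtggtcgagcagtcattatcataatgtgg
NYC1: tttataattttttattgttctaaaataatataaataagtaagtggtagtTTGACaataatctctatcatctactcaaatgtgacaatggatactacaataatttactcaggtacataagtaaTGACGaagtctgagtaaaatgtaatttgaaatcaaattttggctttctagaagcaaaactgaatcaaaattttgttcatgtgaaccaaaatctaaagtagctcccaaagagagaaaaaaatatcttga

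The SAG13 window holds the core TTGAC of the W-box, the element that WRKY factors bind, on the reverse strand 83 to 79 bases before the gene. It also holds the core ACGTG of the abscisic acid response element, on the reverse strand 173 to 169 bases before the gene. The NYC1 window holds a W-box core 201 to 197 bases before the gene and the as-1 core TGACG 128 to 124 bases before it. Such short matches are common. Of 27443 protein-coding genes, 44.9% have a W-box core in the same window, 22.9% the core of the abscisic acid response element and 18.6% the as-1 core. Among the 8 genes the W-box core was found in 3, the abscisic acid core in 3 and the as-1 core in 1. The G-box, whose letters CACGTG include the abscisic acid core, was found in 2 of 8 windows, those of SGR2 and NOL, against 6.49% of all. The mitochondrial dysfunction motif, searched as CTTGNNNNNCAAG, was found in 0 of 8, against 0.740% of all. The windows of SGR1, PPH, PAO and SAG12 held no match to any of these motifs. Those of SGR1, NOL and PAO overlap neighbouring genes, AT4G22930, AT5G04895 and AT3G44870 in that order.

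For chlorophyll b reductase, NYC1 (chromosome 4, 7684156 to 7687006, minus strand, 10 exons) was the most abundant gene of the set in every pool. It was at 115 FPKM in TFIIS mock, 117 FPKM in TFIIS induced, 107 FPKM in TFIISmut mock and 62.4 FPKM in TFIISmut induced. The TFIISmut induced pool was thus the low one, and the other 3 lay close together. The ratio of induced to mock was 0.583 for TFIISmut and 1.02 for TFIIS. As log2 differences these were -0.77 and 0.03, neither of which reached 2-fold.

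NOL (chromosome 5, 1434774 to 1437495, plus strand), the partner of NYC1, shares its row with AT5G04895, an RNA helicase gene, and AT5G04910. That row was at 43.8 FPKM in TFIIS mock, 47.7 FPKM in TFIIS induced, 38.4 FPKM in TFIISmut mock and 45.1 FPKM in TFIISmut induced. These values cannot be assigned to NOL, so whether the subunits of the reductase differed from each other was not tested. The coding sequences of NYC1 and NOL are 43.1% identical and their transcripts share none of the 50-base windows of NYC1, so reads of that length would not be confused.

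For magnesium removal, SGR1 (chromosome 4, 12016420 to 12018643, minus strand, 4 exons) was at 9.89 FPKM in TFIIS mock, 8.45 FPKM in TFIIS induced, 8.85 FPKM in TFIISmut mock and 18.1 FPKM in TFIISmut induced. The last pool was above the other 3, which lay close together. Induced over mock, the ratio of FPKM was 2.05 for TFIISmut and 0.854 for TFIIS. As log2 differences these were 0.96 and -0.21. The first lies just below the threshold of 1 and passed it, at 1.02, with a pseudocount of 0.1 in place of 1.

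SGR2 (chromosome 4, 7156150 to 7158047, plus strand, 4 exons), the close paralogue of SGR1, was at 0.764 FPKM in TFIIS mock, 0.642 FPKM in TFIIS induced, 0.624 FPKM in TFIISmut mock and 0.752 FPKM in TFIISmut induced. It was below 5 FPKM in every pool and enters no count. SGR1 exceeded SGR2 by 12.9 times in TFIIS mock, 13.2 times in TFIIS induced, 14.2 times in TFIISmut mock and 24.1 times in TFIISmut induced. Their coding sequences, 807 and 816 bases, are 74.6% identical, and no 50-base window of the SGR1 transcript occurs in that of SGR2.

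NYC1 and SGR1, which act at different steps of the route, stood in a different ratio in TFIISmut induced. The NYC1 level was 11.6 times that of SGR1 in TFIIS mock, 13.9 times in TFIIS induced, 12.1 times in TFIISmut mock and 3.45 times in TFIISmut induced. The ratio in the last pool was therefore below that in the other 3, whichever mock pool it was set against.

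PPH (chromosome 5, 4451733 to 4454813, minus strand, 7 exons), the pheophytinase, was at 25.7 FPKM in TFIIS mock, 26.7 FPKM in TFIIS induced, 21.9 FPKM in TFIISmut mock and 32.1 FPKM in TFIISmut induced. The highest and lowest pool were those of the TFIISmut line and differed by 1.46 times. The log2 difference of induction was 0.53 in that line and 0.06 in the TFIIS line, and against TFIIS mock TFIISmut induced was 1.25 times as high.

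PAO (chromosome 3, 16383595 to 16386344, plus strand), the pheophorbide a oxygenase, shares its row with AT3G44870, a methyltransferase gene on the same strand that overlaps it by 11 bases. The row was at 31.97 FPKM in TFIIS mock, 29.9 FPKM in TFIIS induced, 23.4 FPKM in TFIISmut mock and 22.5 FPKM in TFIISmut induced. Both TFIISmut pools thus lay below both TFIIS pools, by less than 2-fold, in a row that is not PAO alone.

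SAG12 (chromosome 5, 18613239 to 18614963, plus strand, 3 exons), the marker of age-dependent senescence, is listed at 0 in TFIIS mock, TFIIS induced and TFIISmut mock and at 0.00636 FPKM in TFIISmut induced. No fold is given for it, because a listed 0 can be a failed estimate and the depth of the libraries is unknown.

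SAG13 (chromosome 2, 12600914 to 12602556, plus strand, 5 exons) was at 2.20 FPKM in TFIIS mock, 0.679 FPKM in TFIIS induced, 0.975 FPKM in TFIISmut mock and 40.9 FPKM in TFIISmut induced. The last pool exceeded each of the others, and TFIIS mock was the next highest. In the TFIISmut line, induced over mock, SAG13 was 41.9-fold higher, a log2 difference of 4.41 and rank 13 of 14456 eligible genes. Against TFIIS mock the same pool was 18.6-fold higher. In the TFIIS line the ratio was 0.308, a log2 difference of -0.93, where SAG13 did not reach 5 FPKM in either pool and was not eligible.

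By level, the order in TFIIS mock was NYC1, PPH, SGR1, SAG13, SGR2 and SAG12, and it was the same in TFIIS induced and TFIISmut mock. In TFIISmut induced SAG13 stood in position 2, between NYC1 and PPH. SAG13 and SGR2, at 0.679 and 0.642 FPKM, were nearly level in TFIIS induced. With 1 value a pool, no spread is known for any pair of neighbours in this order.

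Set against all genes, induction of TFIISmut left 1 of the 4 eligible genes of the set 2-fold or more higher, SAG13, and 0 lower. Over all 14456 eligible genes, 5.51% were higher and 1.69% lower. SAG13 became eligible only through the pool in which it was high, so it had to differ, and its count supports nothing about the set. The 3 genes at 5 FPKM or more in every pool gave 0 calls. SGR1 ranked 852 from the top, PPH 1896 and NYC1 13920 of the 14456. Of all calls in this comparison 76.5% were higher, or 65.1% when organelle genes were dropped before rescaling.

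For induction of intact TFIIS, 0 of the 3 eligible genes were called in either direction, against 0.69% of 14203 genes higher and 0.789% lower. Their log2 differences ran from -0.21 for SGR1 to 0.06 for PPH, with a median of 0.03 against 0.02 for all eligible genes. With organelle genes dropped before rescaling, 21.4% of all calls in this comparison were higher, against 46.7%.

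Between the mock pools, TFIISmut against TFIIS, again 0 of 3 were called, against 0.248% of 14113 genes higher and 0.787% lower. All 3 log2 differences were below 0, from -0.22 for PPH to -0.10 for NYC1, and SAG13, not eligible here, differed by -0.70.

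Between the induced pools, TFIISmut against TFIIS, 2 of 4 eligible genes were higher, SAG13 at a log2 difference of 4.64 and SGR1 at 1.02, and 0 were lower. Over 14619 genes 5.34% were higher and 2.57% lower. SAG13 was again eligible only through the pool in which it was high, so its count supports nothing about the set. NYC1 differed by -0.90 and PPH by 0.25. SGR1 lies so close to the threshold that it missed it at 0.88 when the 20 most abundant genes were left out and the pools rescaled, where NYC1 passed it at -1.05. That rescaling moved the median of all genes from 0.03 to -0.12 and the share of higher calls from 67.5% to 52.0%.

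Subtracting the induction effect of the TFIIS line from that of the TFIISmut line gave 5.34 for SAG13, 1.16 for SGR1, 0.47 for PPH and -0.80 for NYC1. By the same rule of size 2 of 4 genes were higher and 0 lower, against 6.57% higher and 2.97% lower of 14835 genes. These comparisons share pools with those above and are not independent of them. For SAG13 the TFIIS effect of -0.93 adds to the value. SAG13 was eligible here too only through TFIISmut induced, so its count supports nothing about the set.

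**Figure D2:**
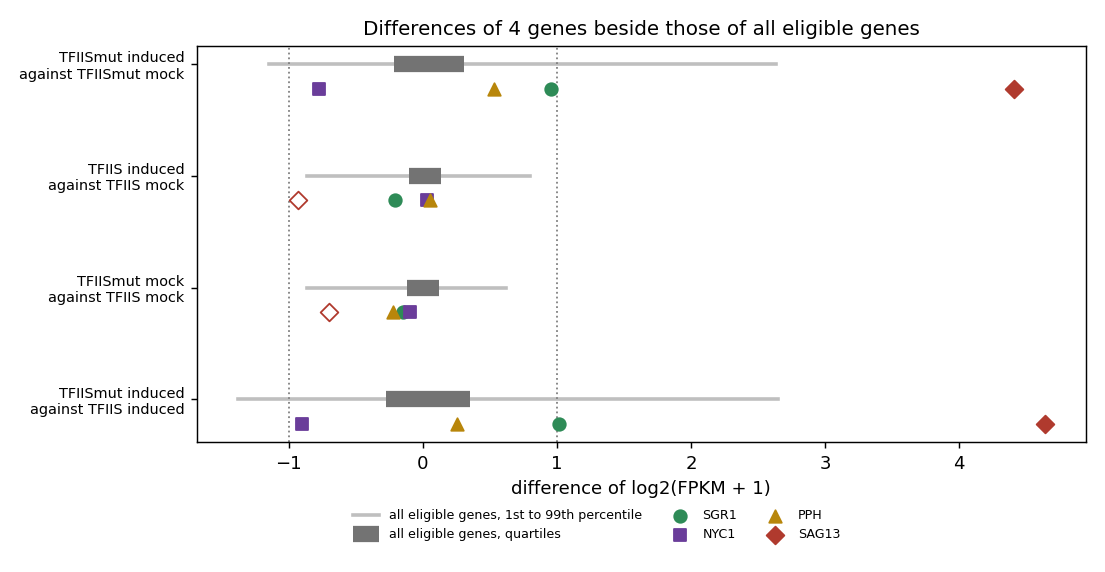
Differences of log2(FPKM + 1) for SGR1, NYC1, PPH and SAG13 in 4 comparisons, with bars for the quartiles of all eligible genes and for their range without the outer 1% at each end; open symbols are not eligible and dotted lines mark 2-fold. SAG13 lies beyond the upper end of that range, 2.63, after TFIISmut induction, while SGR1 at 0.96 and NYC1 at -0.77 lie inside the range.

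SAG13 lies in a tandem stretch of short-chain dehydrogenase genes on chromosome 2, annotated in RefSeq as NAD(P)-binding or tropinone reductase-like proteins. Because such copies can share reads, a stretch of 60 coding bases around the codons of the active-site tyrosine (codon 167) and lysine (codon 171) of SAG13 is shown with the copies that flank it. It is read from TAIR10.1 and covers bases 475 to 534 of the SAG13 coding sequence. Capitals mark bases that differ from SAG13.
SAG13: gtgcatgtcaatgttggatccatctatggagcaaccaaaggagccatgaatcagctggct
AT2G29340: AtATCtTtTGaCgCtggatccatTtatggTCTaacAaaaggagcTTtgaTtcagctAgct
AT2G29360: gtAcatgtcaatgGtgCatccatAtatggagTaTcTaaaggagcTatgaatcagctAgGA

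In this stretch AT2G29340 differs from SAG13 at 18 of 60 bases and AT2G29360 at 11, and both keep the codons of the tyrosine and lysine. Over the whole coding sequence they are 56.99% and 84.1% identical to SAG13. A copy that does not flank SAG13 and is not shown, AT2G29290, is closer in this stretch. It differs at 4 of 60 bases and is 84.1% identical over the coding sequence. Of the 1217 windows of 50 bases in the SAG13 transcript, 1 occurs in AT2G29150 and 0 in any of the other 10 genes. No source used here gives the read length or the treatment of multiply mapped reads.

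The genes on either side of SAG13 had differences of opposite sign, and neither was near 0 in any pool. AT2G29340, the gene before it, was at 57.7 FPKM in TFIIS mock, 65.4 FPKM in TFIIS induced, 56.2 FPKM in TFIISmut mock and 132 FPKM in TFIISmut induced. It was the only other gene of the stretch with a higher call after TFIISmut induction, at a log2 difference of 1.22. AT2G29360, the gene after it, was at 42.1 FPKM in TFIIS mock, 40.5 FPKM in TFIIS induced, 48.7 FPKM in TFIISmut mock and 25.5 FPKM in TFIISmut induced, a log2 difference of -0.91.

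A row shared by AT2G29290, AT2G29300 and a further gene was lower, at 49.1 FPKM in TFIISmut mock and 18.8 FPKM in TFIISmut induced, a log2 difference of -1.34. Of the 9 neighbours with a row of their own, 5 were eligible, 1 was higher and 0 lower in that comparison, with a median of -0.23. The 9 include AT2G29150 and AT2G29170, which several genes outside the list separate from the rest of the stretch. Over all eligible genes 5.51% were higher and 1.69% lower. In TFIISmut mock SAG13 lay below all 5 of these eligible neighbours, and in TFIISmut induced only AT2G29340 lay above it.

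**Figure D3:**
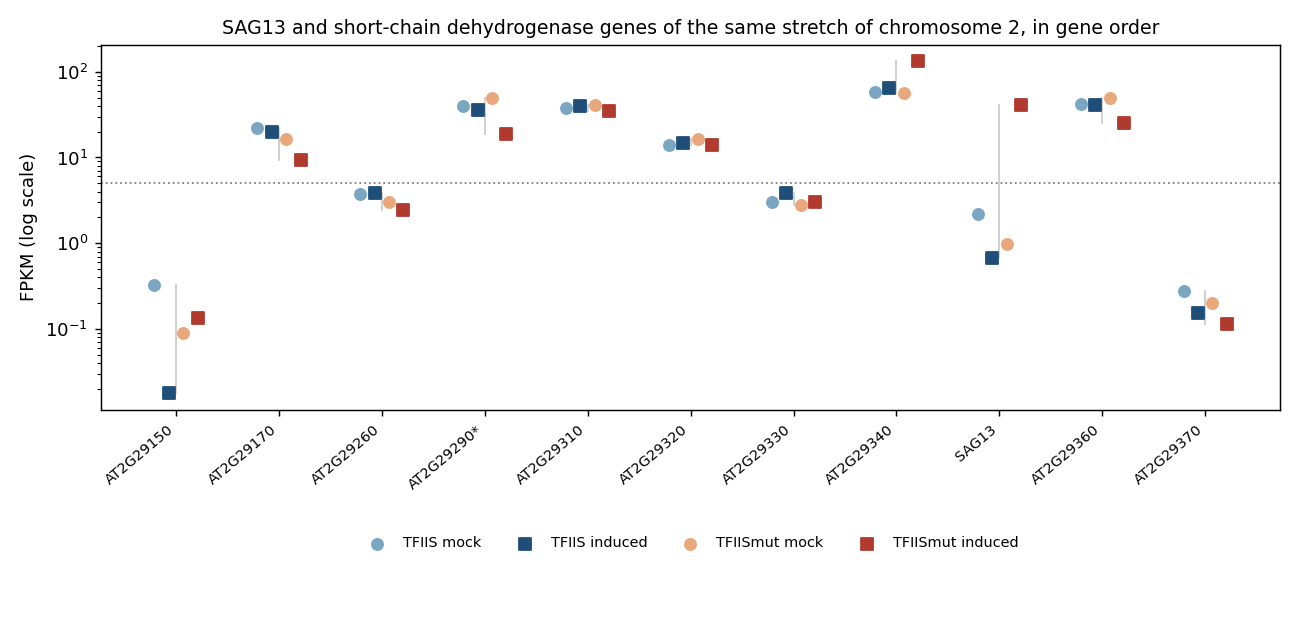
FPKM on a log axis of SAG13 and 10 rows of short-chain dehydrogenase genes in chromosomal order, each point 1 pooled value; the star marks a row shared by several genes and the dotted line 5 FPKM. AT2G29340 and SAG13 are highest in TFIISmut induced, whereas AT2G29360, at 25.5 FPKM, and the shared row, at 18.8 FPKM, are lowest there.

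Among the other genes of chlorophyll breakdown, most differences after TFIISmut induction were small and below 0. Of 12 listed, 11 have a row of their own and 10 were eligible. Of these, 1 was higher and 0 were lower, against 5.51% and 1.69% of all eligible genes. Differences below 0 were found in 8 of 10, with a median of -0.21 against 0.05 for all genes. PES2, a phytyl ester synthase that binds released phytol to fatty acids, was at 3.13 and 8.14 FPKM in TFIISmut mock and TFIISmut induced. The log2 difference was 1.14, and PES2 was eligible only through the pool where it was high. Against TFIIS mock the ratio was 1.76, below 2-fold.

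Its paralogue PES1 was at 10.105 and 7.92 FPKM in the same pools. SGRL, the SGR-like enzyme that removes magnesium from chlorophyllide, was at 46.4 and then 26.7 FPKM, with a log2 difference of -0.78, and HCAR, the reductase that follows NYC1 and NOL, at 15.7 and 11.8 FPKM. The late enzymes had similar values in both pools: RCCR, which reduces the opened ring, was at 33.8 and 33.7 FPKM, and TIC55, which hydroxylates a later catabolite, at 42.6 and 46.4 FPKM. CLH1, a chlorophyllase, was at 19.0 and 17.5 FPKM, and AT2G35260 at 68.0 and 45.8 FPKM. In the TFIIS line 0 of 9 eligible genes were called, with a median of -0.05. Only 0.69% of all eligible genes were higher there and 0.789% lower.

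Of the regulators of senescence, 6 of 27 eligible genes were higher after TFIISmut induction and 0 lower, against 5.51% and 1.69% of all eligible genes. The median was -0.01, against 0.05 for all genes. WRKY70, a factor of salicylic acid signalling that restrains senescence, was at 13.4 FPKM and then 140 FPKM, with a log2 difference of 3.29. It was at 32.2 FPKM in TFIIS mock, so that the 10.4-fold ratio within the TFIISmut line was 4.35-fold against that pool, and it was itself lower in TFIISmut mock than in TFIIS mock, by the log2 difference of -1.20. WRKY45, which promotes senescence, was at 7.61 and 27.5 FPKM, and WRKY6 at 11.9 and 26.3 FPKM. Against TFIIS mock WRKY45 was 3.79-fold higher, while the ratio of WRKY6 was 1.58, below 2-fold.

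The remaining 3 were eligible only through the pool where they were high: JUB1, a NAC factor that delays senescence, at 2.39 and 14.9 FPKM, WRKY75, which promotes it, at 2.80 and 15.1 FPKM, and WRKY54 at 1.47 and 7.35 FPKM. Against TFIIS mock WRKY54 was 2.50-fold higher, and JUB1, at 6.24-fold against its own mock, 4.17-fold. Both promoters and repressors of senescence are thus among the 6. WRKY53, an early promoter of leaf senescence, missed the rule at 12.3 and 24.6 FPKM, with a log2 difference of 0.95.

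Several other regulators did not pass the rule. ORE1 (NAC092), a NAC factor that activates senescence, was at 13.5 FPKM in TFIIS mock, 18.3 FPKM in TFIIS induced, 10.4 FPKM in TFIISmut mock and 19.2 FPKM in TFIISmut induced, so the log2 differences of induction were 0.83 in the TFIISmut line and 0.41 with intact TFIIS. NAC016, a further NAC factor of senescence, was at 0.907 and 4.01 FPKM in TFIISmut mock and TFIISmut induced, a log2 difference of 1.39, but stayed below 5 FPKM and was not eligible. NAP (NAC029) was at 7.06 FPKM in TFIISmut mock and 11.9 FPKM in TFIISmut induced, and EIN3, the ethylene factor that acts above ORE1, at 44.5 and 46.5 FPKM. GLK1 and GLK2, which promote chloroplast development, were at 46.9 and 32.7 FPKM and at 30.7 and 17.3 FPKM. In the TFIIS line 0 of 24 eligible regulators were called, against 0.69% of all eligible genes higher and 0.789% lower. At such shares a count of 0 is no result about the regulators.

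Of the other senescence-associated genes, 20 were eligible after TFIISmut induction, of which 6 were higher and 1 lower, against 5.51% and 1.69% of all eligible genes. Differences above 0 were found in 18 of the 20. The median was 0.59, against 0.05 for all genes. YLS3, a lipid transfer-like protein, was at 16.9 and 146 FPKM, YLS5 at 27.9 and 160 FPKM, and YLS9 (NHL10), which also responds to pathogens, at 1.63 and 16.2 FPKM. YLS9 was eligible only through the pool where it was high. Against TFIIS mock YLS9 was 3.49-fold higher in place of 9.92-fold, and YLS5 3.32-fold in place of 5.71-fold. SAG14, a blue copper protein, was at 46.2 and 103 FPKM, SAG101, a partner of the immune regulator EDS1, at 5.09 and 13.4 FPKM, and PPDK, a pyruvate dikinase, at 20.02 and 42.4 FPKM. Against TFIIS mock the ratios of SAG14 and PPDK were 1.99 and 1.88, below 2-fold. SEN1 was the 1 lower gene, at 52.2 FPKM in TFIIS mock, 130 FPKM in TFIIS induced, 105 FPKM in TFIISmut mock and 37.8 FPKM in TFIISmut induced. Its ratio was 0.360 against its own mock and 0.724 against TFIIS mock, where it did not reach 2-fold.

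In the TFIIS line 4 of 21 eligible genes of this list were lower and 1, SEN1, was higher, at a log2 difference of 1.30. Over all eligible genes 0.789% were lower and 0.69% higher there. The lower ones were SWEET15 (SAG29), a sugar transporter, at 15.3 FPKM without and 0.446 FPKM with induction, SAG113 (HAI1), a phosphatase of abscisic acid signalling, at 13.3 and 1.40 FPKM, SIRK at 22.5 and 9.14 FPKM, and AT2G25625 at 13.02 and 5.35 FPKM. All 4 were also lower in TFIISmut mock than in TFIIS mock. In both comparisons SWEET15 and SAG113 were eligible only through TFIIS mock, the pool where they were high, so they had to lie lower in the other pool. The water loss markers, of which SAG113 is also 1, moved with these 4 genes: 10 of 10 were lower, with a median of -3.30. Of these markers, RAB18, RD29B, RD20, LTP4, LEA4-5 and SAG113 were eligible only through TFIIS mock. They were high in that pool, so they had to lie lower in the other, and their calls support nothing about the list. The list of water loss markers too was chosen with earlier results of these data known. The part of these markers in the TFIIS mock level of SAG13 was not tested.

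Markers of salicylic acid moved with SAG13 in the TFIISmut line: 6 of 6 were higher, against 5.51% of all eligible genes, with a median of 2.26. The list was chosen with earlier results of these data known, so this count is a description. PR1, at 2.41 and 212 FPKM, and PR2, at 0.643 and 14.5 FPKM, were eligible only through the pool where they were high. The 6 summed to 34.2 FPKM in TFIISmut mock and 370 FPKM in TFIISmut induced, against 46.2 and 38.3 FPKM in the TFIIS pools. Leaf photosynthesis markers had the sign of NYC1: 8 of 8 lay below 0, with a median of -0.84 against -0.77 for NYC1. Of the 8, 2 were 2-fold lower, against 1.69% of all eligible genes. In the TFIIS line 8 of 8 of these markers also lay below 0, with a median of -0.25, where NYC1 was at 0.03. Of the root markers with a row of their own, 3 of 7 were eligible, with a median of -0.67, and they summed to 1071 to 1247 FPKM in the 4 pools, nearly all of it from PYK10. The part of any of these in the values of SAG13, SGR1 and NYC1 was not tested.

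**Figure D4:**
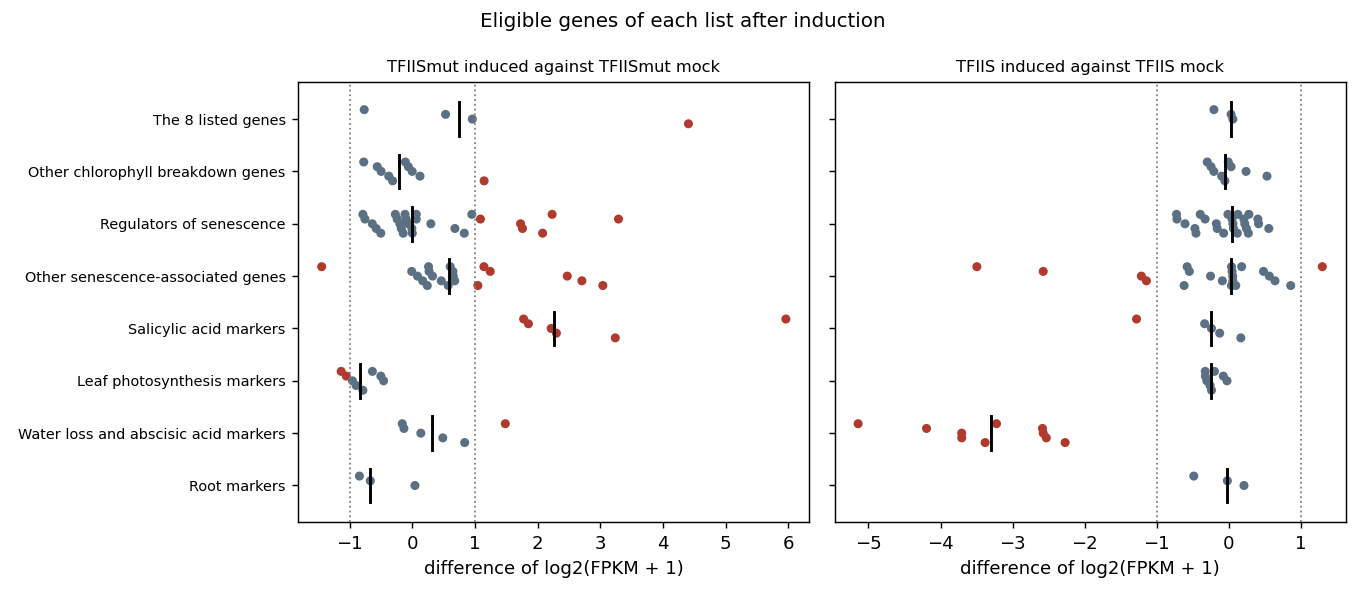
Differences of log2(FPKM + 1) for induction of TFIISmut (left) and TFIIS (right) in the eligible genes of each list, each point a gene, black bars the medians, red points 2-fold or more. In the TFIISmut line the medians run from -0.84 for leaf photosynthesis to 2.26 for salicylic acid markers, and in the TFIIS line the water loss markers lie at -3.30.

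The genes with the most similar values over the 4 pools were found by Euclidean distance between mean-centred log2(FPKM + 1) values, among 14834 other genes. For SAG13 they were CYP71B15 (PAD3), the last enzyme of camalexin synthesis, at a distance of 0.20, FLOT2 at 0.32 and AT5G52760 at 0.34. CYP71B15 was at 7.60 FPKM in TFIIS mock, 4.03 FPKM in TFIIS induced, 3.89 FPKM in TFIISmut mock and 116 FPKM in TFIISmut induced, with TFIIS mock again the next highest pool.

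For SGR1 the nearest were NAC062, a NAC factor, at 0.03, SAP6, a zinc finger gene, at 0.03 and AT3G23570 at 0.04. NAC062 was at 13.5 FPKM in TFIIS mock, 11.9 FPKM in TFIIS induced, 12.4 FPKM in TFIISmut mock and 24.7 FPKM in TFIISmut induced. For NYC1 they were AT4G26540, AT5G12950 and EMB2369, each at 0.04 to 0.05, and for PPH AT4G22517 at 0.02, AT1G70590 at 0.04 and GDPDL1 at 0.04. With 4 points a gene, a short distance is a description of these pools, and genes with small differences find near neighbours easily.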

How the data were processed

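Polyadenylated RNA of 12 libraries was prepared with an Illumina stranded mRNA kit, per the labels' protocols. The authors deposited 1 value per gene and group, read here as FPKM from layout and values, since no header names the unit; no source used here gives the way libraries were combined, the quantification tool, the genome build or the annotation. Per the submitters' processing notes, Bowtie2 2.3.5 was used, in a role they do not state. Library depth is unknown.

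Of 32705 rows, 38 with repeated identifiers were left out; 32009 of the 32667 others matched RefSeq TAIR10.1, whose coordinates are given. Differences of log2(FPKM + 1) were computed with pandas 2.3.3. The rule of size was run on simulated data, with changes well above or well below 2-fold put into abundant genes. That run does not cover values near the threshold or genes with low FPKM. With no replicates there is no test. Alternatives were other pseudocounts, minima, folds, scalings and mock pools. Coding sequences were aligned with Biopython 1.88. Named genes are the 8 genes, list genes passing the rule (at most 4 per list and comparison, others where a sentence needed them) and the 3 nearest per eligible gene. The set of 8 was given by gene identifier, whereas the lists of further genes were chosen with earlier results of these data known.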

Additional observations from a re-analysis of the deposited data

Results flagged for a closer look

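For 3 genes the induction effects had opposite signs in the lines, each line being represented by a single pair of pools; the difference was not tested. The log2 difference of the effects, TFIISmut minus TFIIS, was 5.34 for SAG13, from 4.41 and -0.93, where SAG13 was below 5 FPKM in both TFIIS pools. It was 1.16 for SGR1, from 0.96 and -0.21, and -0.80 for NYC1, from -0.77 and 0.03. The sign of the NYC1 effect in the TFIIS line depends on the scaling: it was -0.14 without organelle genes and rescaled, where both lines share a sign. Under that scaling PPH, not among the 3, had opposite signs instead, at -0.11 in the TFIIS line and 0.40 in the TFIISmut line.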

How the results depend on the processing

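No paired analysis was possible because each group is 1 pooled column, without replicates to pair; for that reason the replicate block and the leaving out of replicates were not run. After TFIISmut induction the 1 gene called became 2 with a pseudocount of 0.1 and 3 at 1.5-fold. Between the induced pools the 2 called became 1 with a pseudocount of 5 and 1 without organelle genes and rescaled; 2 were also called under quantile normalization and without the 20 most abundant genes, but there NYC1, lower, replaced SGR1. For the difference of effects the 2 became 1 with a pseudocount of 5. At 1.5-fold 3 were called in both of these comparisons, NYC1 being added. SAG13 was called in these 3 comparisons under every setting run, with log2 differences of 2.94 to 5.25 after TFIISmut induction; SGR1 ran from 0.74 to 1.02 and NYC1 from -0.91 to -0.73. In the TFIIS line and between mock pools 0 were called under every setting. SAG13 was below 5 FPKM in these pools, which kept it uncalled where its difference passed 1 in size. With a pseudocount of 0.1 it differed by -1.56 in the TFIIS line and by -1.10 between mock pools. Without organelle genes and rescaled it differed by -1.04 in the TFIIS line. Leaving out organelle genes and rescaling moved the median of all genes from 0.02 to -0.15 in the TFIIS line and from 0.05 to -0.08 in the TFIISmut line. No called value changed sign. Unknown depth leaves the values of SGR2 and SAG12 without a detection limit.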
